A study of Mus musculus with 32 samples.

Results

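Mt1, Mt2 and Mt3, 3 metallothionein genes, and Slc30a1, the zinc exporter ZnT1, were followed in the ischaemic brain hemisphere. They are 4 of the 17877 genes named on the array, and were taken by symbol as the metallothioneins on the array that were detected, with the exporter that is under the same metal control. Each had 1 probe, numbered 5220279 for Mt1, 2190196 for Mt2, 5310747 for Mt3 and 4780673 for Slc30a1. All 4 probes were detected at p under 0.01 on 32 of 32 arrays. The fourth mouse metallothionein, Mt4, had a probe too, which was detected on 0 of 32 arrays, and it was not tested.

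RNA came from right striatum and right cortex of mice labelled Gpx1-/- (lacking the peroxide-removing enzyme glutathione peroxidase 1), of strain C57/Bl6 and aged 8 to 10 weeks. The middle cerebral artery was blocked by a suture for 2 h, and tissue was taken after 2, 8 or 24 h of reperfusion. Sham mice, also labelled Gpx1-/-, had anaesthesia and a neck incision only. Each of the 8 groups (sham, 2 h, 8 h and 24 h in striatum and in cortex) held 4 arrays. The genotype is thus shared by all groups, no wild-type array was analysed here, and the growth protocol, against the other labels, speaks of male wild-type mice. The labels do not say whether striatum and cortex of a replicate number came from 1 mouse, nor that arrays of a group are separate mice, so p-values measure the spread between these arrays.

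Metallothioneins are small cysteine-rich proteins that bind zinc and copper ions and react with oxidants, which releases the bound zinc. Mt1 and Mt2 are made in most tissues, in brain mainly in astrocytes, and are switched on by zinc through the metal sensor MTF1, by glucocorticoids and by cytokines of the IL-6 family through STAT3. Mt3, also called growth inhibitory factor, is largely a brain gene of neurons and astrocytes and is known to respond little to metals. Slc30a1 sits in the plasma membrane, carries zinc out of the cell and is a classic MTF1 target.

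In the RefSeq annotation the metallothionein genes lie next to each other on chromosome 8, in the order Mt4, Mt3, Mt2, Mt1 with a long non-coding RNA gene, Gm39227, between Mt3 and Mt2, while Slc30a1 lies on chromosome 1. The windows from 250 bases before to 50 bases after each gene's start are shown because the genes are grouped by metal control, and they place the metal response element core, the DNA letters that MTF1 recognises. The sequences are from RefSeq on GRCm38.p6, all on the plus strand, at chr8:94178839-94179138 for Mt1, chr8:94172368-94172667 for Mt2, chr8:94152357-94152656 for Mt3 and chr1:191906531-191906830 for Slc30a1. Capitals mark each match to TGCACNC or TGCGCNC on either strand.
Mt1: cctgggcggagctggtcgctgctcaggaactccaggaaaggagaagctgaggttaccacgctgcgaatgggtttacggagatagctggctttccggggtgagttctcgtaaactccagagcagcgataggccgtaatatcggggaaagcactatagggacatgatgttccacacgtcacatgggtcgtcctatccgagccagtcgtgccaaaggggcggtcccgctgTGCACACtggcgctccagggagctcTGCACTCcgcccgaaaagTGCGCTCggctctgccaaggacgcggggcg
Mt2: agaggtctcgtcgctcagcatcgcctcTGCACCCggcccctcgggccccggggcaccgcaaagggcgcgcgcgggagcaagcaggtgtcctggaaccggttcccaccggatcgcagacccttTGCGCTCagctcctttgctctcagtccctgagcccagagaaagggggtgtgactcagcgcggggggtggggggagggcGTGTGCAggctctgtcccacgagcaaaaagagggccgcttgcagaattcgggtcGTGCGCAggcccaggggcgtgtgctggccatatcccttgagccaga
Mt3: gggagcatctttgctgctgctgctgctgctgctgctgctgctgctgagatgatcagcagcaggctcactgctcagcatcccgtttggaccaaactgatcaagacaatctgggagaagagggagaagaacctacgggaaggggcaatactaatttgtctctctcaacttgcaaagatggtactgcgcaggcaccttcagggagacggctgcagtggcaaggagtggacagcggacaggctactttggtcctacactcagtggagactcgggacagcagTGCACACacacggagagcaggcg
Slc30a1: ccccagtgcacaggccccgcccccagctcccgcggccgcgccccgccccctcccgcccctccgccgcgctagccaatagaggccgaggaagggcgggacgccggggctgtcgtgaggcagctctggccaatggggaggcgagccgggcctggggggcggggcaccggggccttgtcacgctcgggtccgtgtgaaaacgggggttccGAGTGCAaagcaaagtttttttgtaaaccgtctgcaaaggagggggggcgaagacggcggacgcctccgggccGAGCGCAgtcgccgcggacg
Within its window Mt1 had 3 matches, which begin at -23, 3 and 21 relative to the annotated start, all on the strand of the gene. Mt2 had 4 matches, at -223 and -128 on the strand of the gene and at -50 and 5 on the other. Mt3 had 1 match, at 28, and Slc30a1 had 2, at -43 and 31 on the other strand. Of the 32851 windows of this length in the table, 25.7% held at least 1 such core, 1.97% held 3 or more and 0.517% held 4 or more. The STAT element TTCNNNGAA had 0 matches in each of the 4 windows, while 8.30% of all windows held at least 1. The antioxidant response element core TGACNNNGC, the letters that NRF2 binds, was found once in Mt2, at -79. It was also found once in Slc30a1, at -82 on the other strand, and in 12.4% of all windows. These matches are letters in a window and not shown binding sites. The starts are those of the annotation and were not checked against other sources. Cores outside the windows were not counted, so the counts do not rank the genes by their elements.

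Signal and detection were even across the series: the median raw signal was 60.1 to 92.4 and 41.6% to 46.4% of the 25697 probes were detected per array. The Gpx1 probe was detected on 32 of 32 arrays at a log2 level of 8.78 to 10.4; whether it lies in the deleted part of the gene is not known, so it does not check the genotype. Summed signals of cortical projection neuron markers (6 measured) were 748 to 1236 in sham striatum and 5615 to 7772 in sham cortex. Those of striatal projection neuron markers (5 measured) were 5130 to 6514 in sham striatum and 3954 to 4685 in sham cortex, so markers of the striatum were present in the cortical samples as well. Hypothalamic markers (4 measured) summed to 4568 to 8152 on the striatal arrays and 110 to 2185 on the cortical ones. Tissue content was uneven within groups. Choroid plexus markers (5 measured) summed to 589 to 13128 in sham cortex and 251 to 14732 in cortex at 24 h. Blood markers (2 measured) summed to 297 to 13642 in cortex at 24 h. On the second principal component (21.5% of the variance) 2 cortical arrays stood far on the sham side of their group: replicate 1 at 24 h (-3.87, with the rest at 18.0 to 37.4) and replicate 4 at 8 h (-0.49, with the rest at 12.5 to 15.4). In the other reperfusion groups the array nearest to sham was closer to the rest. It was replicate 2 in striatum at 2 h (-10.6, with the rest at -6.10 to -5.14), replicate 4 at 8 h (-5.35, with the rest at -1.67 to 10.8), replicate 1 at 24 h (8.38, with the rest at 14.9 to 33.7) and replicate 1 in cortex at 2 h (-6.52, with the rest at -2.92 to 1.43). The Mt2 and Mt3 changes are also given without the array nearest to sham. That array was picked from these same data, so leaving it out favours a larger change of any gene that follows this component.

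Mt2 and Mt3 changed in opposite directions. Mt2 rose 2.10-fold at 8 h and 2.53-fold at 24 h in striatum, and 2.83-fold at 8 h and 2.14-fold at 24 h in cortex. Mt3 fell in striatum to 0.514 of sham at 8 h and to 0.618 at 24 h, and in cortex to 0.509 at 24 h. No change of Mt1 or of Slc30a1 passed the test in any comparison, and the Mt1 probe was at or near the top of the signal range on every array. In bulk tissue, fewer cells of a type and less RNA per cell cannot be told apart.

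Over the comparisons with sham, 0 of 4 members passed in striatum at 2 h (limma, adjusted over 9475 genes), where 6.3% of all genes passed. At an unadjusted p under 0.05 there were 1 member and 2259 of the 9475 genes. In striatum 2 members passed at 8 h, where 25.2% of all genes passed, and 2 at 24 h, where 30.9% did. In cortex 0 members passed at 2 h, where 4.65% of all genes passed, and at an unadjusted p under 0.05 there were 0 members and 2023 genes. One member passed in cortex at 8 h, against 20.2% of all genes, and 2 at 24 h, against 33.3%. With 4 members these counts do not set the list apart from the array as a whole.

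Mt1 encodes metallothionein 1. Its raw bead signal was 15519.8, 20819.9, 20856.6 and 17960.5 in sham striatum, 14039.0, 21003.6, 19964.9 and 16607.0 at 2 h, 15987.0, 17092.0, 17695.0 and 14126.5 at 8 h, and 14227.3, 16564.4, 17729.5 and 16207.7 at 24 h. In cortex it was 20514.2, 21285.8, 21517.4 and 20690.9 in sham, 18181.1, 20459.4, 20118.0 and 19930.6 at 2 h, 16732.8, 19618.1, 18579.6 and 20501.8 at 8 h, and 19906.8, 21873.3, 19243.4 and 22232.6 at 24 h. These values are not normalized between arrays. In striatum every reperfusion group overlapped sham, while in cortex all 2 h and 8 h arrays lay below all sham arrays. The probe ranked 1 to 9 of 25697 on every array, with a median rank of 2, and its signal was 84.4% to 100% of that of the brightest probe, which itself ran from 14046.5 to 23840.7. The 2 lowest ranks were those of striatum 8 h replicate 4, at rank 9, and striatum 2 h replicate 3, at rank 8.

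**Figure D1:**
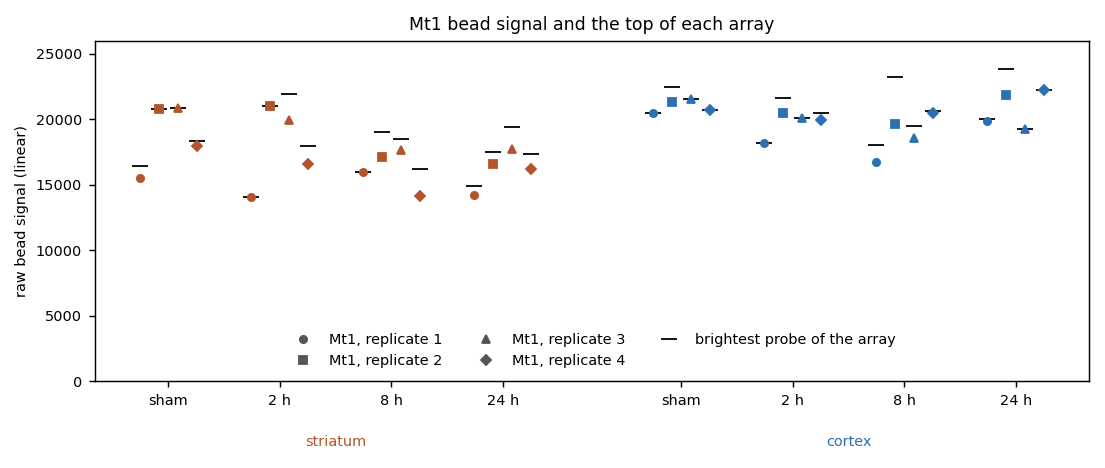
Raw bead signal of the Mt1 probe on each array (points, linear scale from 0) with the brightest probe of the same array (black dashes), by region and time; the shapes are the 4 replicates of a group. On every array the Mt1 point lies at or close below the dash, between 84.4% and 100% of it.

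Quantile normalization gives the brightest probe of every array the same value, so Mt1 could not exceed a log2 level of 14.24, which it held on 11 arrays. Its group means were 14.20 ± 0.06 in striatal sham, 14.17 ± 0.09 after 2 h, 14.15 ± 0.10 after 8 h and 14.12 ± 0.03 after 24 h of reperfusion (SD, n = 4 each). They were 14.22 ± 0.05 in cortical sham and 14.22 ± 0.03, 14.12 ± 0.05 and 14.22 ± 0.03 after the same times. The log2 change from sham ran from -0.08 at 24 h to -0.03 at 2 h in striatum and from -0.10 at 8 h to 0.00 at 2 h and 24 h in cortex, with adjusted p between 0.275 and 0.986 (limma). Within the slide codes, Mt1 was lower than the sham array on 4 of 4 at 24 h in striatum and on 4 of 4 at 8 h in cortex. With each array scaled to its 75th percentile, which does not tie the top ranks, the changes were 0.08, 0.12 and 0.11 at 2, 8 and 24 h in striatum and 0.05, -0.04 and 0.05 in cortex, with adjusted p of 0.408 or more. The direction in striatum thus turned with the scaling. A rise of Mt1 above the brightest probe cannot appear on the quantile-normalized scale. Whether the raw signal was itself limited at the top of its range was not tested, and no scaling would undo such a limit.

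Mt2 encodes metallothionein 2, the partner of Mt1 in the stress response. Its probe had a raw signal of 153.8 to 980.0 and lay at least 0.80 above the detection floor on the log2 scale, with 16 to 43 beads per array and a standard error between beads of 5.24% to 11.6% of the signal. In striatum the log2 levels were 7.48, 7.28, 7.26 and 7.31 in sham and 7.91, 7.98, 7.44 and 7.91 at 2 h. They were 8.79, 8.37, 8.99 and 7.46 at 8 h and 8.27, 9.26, 8.18 and 8.99 at 24 h. All 24 h arrays lay above all sham arrays, whereas 1 array at 2 h (replicate 3) and 1 at 8 h (replicate 4) lay among the sham arrays. The log2 change was 0.48 ± 0.38 at 2 h (SE, adjusted p = 0.481, limma), 1.07 ± 0.38 at 8 h (adjusted p = 0.0399) and 1.34 ± 0.38 at 24 h (adjusted p = 0.00849). The 95% interval of the fold at 24 h was 1.47 to 4.36.

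In cortex Mt2 stood at 6.96, 7.15, 7.02 and 7.35 in sham and at 7.36, 7.71, 8.14 and 7.85 at 2 h. It stood at 8.75, 8.67, 9.07 and 7.98 at 8 h and at 6.72, 9.57, 7.71 and 8.86 at 24 h. The 2 h and 8 h arrays did not overlap the sham arrays. At 24 h the array of replicate 1 was below every sham array while that of replicate 2 was the highest of all 32, and the SD of 1.26 was the widest of any member and group. The log2 change was 0.64 ± 0.38 at 2 h (adjusted p = 0.336, limma), 1.50 ± 0.38 at 8 h (adjusted p = 0.00724) and 1.10 ± 0.38 at 24 h (adjusted p = 0.0276). The 95% interval of the fold at 8 h was 1.64 to 4.86.

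Without the array nearest to sham, the Mt2 changes at 8 h and 24 h were larger: 1.60 at 24 h in cortex without replicate 1 (adjusted p = 0.000532), 1.71 at 8 h in cortex without replicate 4 (adjusted p = 0.00406), 1.48 at 24 h in striatum without replicate 1 (adjusted p = 0.00813) and 1.38 at 8 h in striatum without replicate 4 (adjusted p = 0.0134). The choice of array favoured larger changes, so they add no support. At 2 h the Mt2 change was 0.42 in striatum without replicate 2 (adjusted p = 0.604) and 0.78 in cortex without replicate 1 (adjusted p = 0.291). The cortical rise at 24 h did not pass without replicate 2, at 0.64 (adjusted p = 0.186), without replicate 4, at 0.88 (adjusted p = 0.111), or without sham replicate 1, 2 or 3, at 1.04 to 1.11 (adjusted p = 0.0525 to 0.0627). The striatal rise at 8 h did not pass without replicate 1, at 0.94 (adjusted p = 0.0969), without replicate 2, at 1.08 (adjusted p = 0.0611), without replicate 3, at 0.87 (adjusted p = 0.136), or without any 1 of the sham arrays (adjusted p = 0.0617 to 0.0801).

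Markers of infiltrating neutrophils and monocytes (5 of 8 measured: S100a8, S100a9, Ly6c1, Plac8 and Lcn2) were also brighter in sum. Taken singly, 1 of the 5 rose in striatum and 2 in cortex at 8 h, and 5 and 4 at 24 h, while 0 fell. The shares of all genes that rose were 12.4% and 9.58% at 8 h and 14.7% and 15.7% at 24 h. At 8 h the summed signal of the 5 markers was 1871 to 2969 in striatum and 1682 to 4821 in cortex, above the sham sums given next. At 24 h it was 3282, 7046, 2714 and 7210 on the striatal arrays, against 1047 to 1315 in sham striatum. In cortex it was 1158, 9568, 2395 and 7329 at 24 h, against 780 to 1190 in sham. In cortex at 24 h the order of the arrays by this sum, replicates 2, 4, 3 and 1, was also their order by Mt2, while the orders differed in cortex at 8 h and in striatum at 8 h and 24 h. In cortex at 24 h replicate 1 lay within the sham range of the sum. Astrocyte markers (9 of 10 measured) summed to 24140 to 28077 in striatum at 24 h, against 28449 to 31814 in sham. In cortex at 24 h their sum was 24300 to 26259, against 25891 to 28028 in sham. By gene, 1 of the 9 rose and 3 fell in striatum at 24 h, and 2 rose and 1 fell in cortex. At 8 h, 1 rose and 1 fell in striatum, and 1 rose and 0 fell in cortex. The shares of all genes that fell were 12.8% and 10.6% at 8 h and 16.2% and 17.6% at 24 h, in striatum and cortex. Endothelial markers (6 of 7 measured, 4 of which rose at 24 h in each region) summed to 4363 to 6652 in striatum at 24 h, against 2615 to 3219 in sham, and to 2640 to 5383 in cortex at 24 h, against 2089 to 2661 in sham. At 8 h, 2 of the 6 endothelial markers rose and 2 fell in cortex, and 0 rose and 2 fell in striatum. In striatum and in cortex, at 8 h and at 24 h, the array with the lowest endothelial sum of its group was also the lowest by Mt2. The same array was the lowest by the neutrophil and monocyte sum too, so this match does not single out either list. Whether the lists mark separate cells was not tested. The part of any of these cell types in the Mt2 change was not tested.

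**Figure D2:**
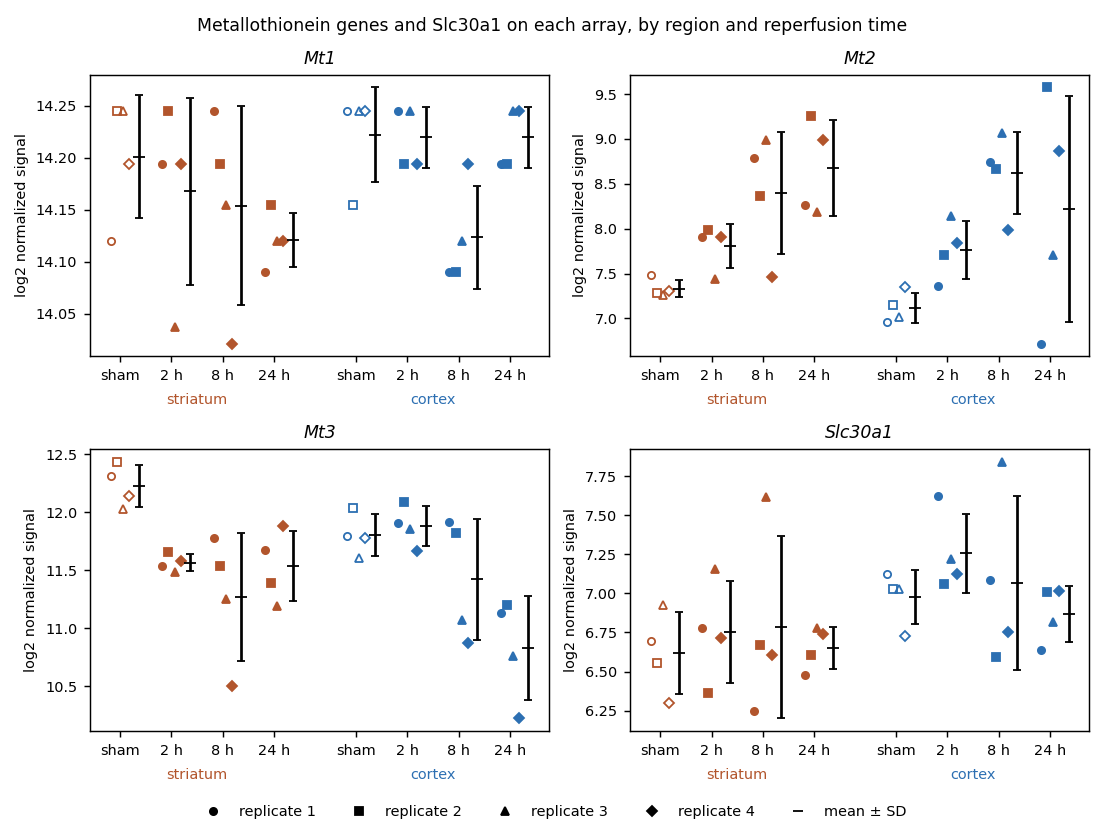
Log2 normalized signal of each member on all 32 arrays, by region and time (open symbols, sham; filled symbols, reperfusion; shapes, replicates 1 to 4; bars, mean ± SD). Mt2 lies above sham at 8 h and 24 h except for single arrays, Mt3 lies below it at all times in striatum and at 24 h in cortex, and the 4 panels have separate scales, that of Mt1 spanning 14.02 to 14.24.

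Mt3 encodes the brain metallothionein. Its raw signal was 1053.5 to 7009.7, with a standard error between beads of 2.42% to 5.79%. In striatum the log2 levels were 12.31, 12.43, 12.02 and 12.14 in sham and 11.53, 11.66, 11.48 and 11.58 at 2 h. They were 11.78, 11.54, 11.25 and 10.50 at 8 h and 11.67, 11.39, 11.19 and 11.88 at 24 h. Every reperfusion array in striatum lay below every sham array, at all 3 times. The log2 change was -0.66 ± 0.23 at 2 h (adjusted p = 0.0793, limma), -0.96 ± 0.23 at 8 h (adjusted p = 0.00356) and -0.69 ± 0.23 at 24 h (adjusted p = 0.0226). At 2 h the adjusted p was 0.0340 with the slide code as a block.

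In cortex Mt3 stood at 11.80, 12.04, 11.60 and 11.78 in sham and at 11.91, 12.08, 11.86 and 11.66 at 2 h. It stood at 11.91, 11.82, 11.07 and 10.87 at 8 h and at 11.13, 11.20, 10.76 and 10.22 at 24 h. The sham and 2 h arrays overlapped, at 8 h the arrays of replicates 1 and 2 lay within the sham range and the other two below it, and at 24 h all 4 lay below sham. The log2 change was 0.07 ± 0.23 at 2 h (adjusted p = 0.890, limma), -0.38 ± 0.23 at 8 h (adjusted p = 0.246) and -0.98 ± 0.23 at 24 h (adjusted p = 0.00207). The 95% interval of the 24 h fold was 0.366 to 0.706.

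Without the array nearest to sham, the Mt3 change was -1.08 at 24 h in cortex without replicate 1 (adjusted p = 0.00124), -0.20 at 8 h in cortex without replicate 4 (adjusted p = 0.580), -0.74 at 24 h in striatum without replicate 1 (adjusted p = 0.0274) and -0.70 at 8 h in striatum without replicate 4 (adjusted p = 0.0238). At 2 h it was -0.70 in striatum without replicate 2 (adjusted p = 0.113) and 0.06 in cortex without replicate 1 (adjusted p = 0.919). The striatal 24 h fall did not pass without sham replicate 1 (-0.66, adjusted p = 0.0556), sham replicate 2 (-0.63, adjusted p = 0.0670), replicate 2 of the 24 h arrays (-0.65, adjusted p = 0.0640) or replicate 3 of them (-0.58, adjusted p = 0.0808). Summed neuron markers (5 of 8 measured) were also lower. At 8 h they summed to 17805 to 19140 in striatum and 26038 to 28158 in cortex, below the sham sums given next. At 24 h they summed to 15833 to 18032 in striatum, against 19357 to 20989 in sham, and to 22523 to 27503 in cortex, against 30444 to 33435 in sham. Taken singly, 1 of the 5 rose and 1 fell in striatum at 8 h, and 0 rose and 2 fell at 24 h. For cortex, 0 rose at either time, while 2 fell at 8 h and 3 at 24 h. The shares of all genes that fell were 12.8% and 16.2% in striatum and 10.6% and 17.6% in cortex. At 2 h in striatum the neuron sum was 19121 to 21224 and overlapped sham, while the Mt3 arrays did not. The sum of striatal projection neuron markers in striatum was 5000, 2509, 4777 and 5794 at 2 h, 2015, 3475, 2618 and 9188 at 8 h, and 2016, 5123, 2160 and 3417 at 24 h, against 5130 to 6514 in sham. It lay below every sham array on 3 of 4 arrays at 2 h, on 3 of 4 at 8 h and on 4 of 4 at 24 h, and the 8 h array with the lowest Mt3, replicate 4, had the highest sum. The astrocyte sum was also below sham in striatum at 24 h (24140 to 28077, against 28449 to 31814), where 1 of 9 markers rose and 3 fell. In cortex at 24 h it overlapped sham. The part of neuron or astrocyte content in the Mt3 change was not tested.

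Slc30a1 had a dim probe, with a raw signal of 99.5 to 280.1 and a lowest margin over the detection floor of 0.44 on the log2 scale. In striatum the log2 levels were 6.69, 6.56, 6.93 and 6.30 in sham, 6.78, 6.36, 7.16 and 6.71 at 2 h, 6.25, 6.67, 7.61 and 6.61 at 8 h, and 6.48, 6.61, 6.78 and 6.74 at 24 h. In cortex they were 7.12, 7.03, 7.03 and 6.73 in sham, 7.62, 7.06, 7.22 and 7.12 at 2 h, 7.09, 6.59, 7.84 and 6.75 at 8 h, and 6.64, 7.01, 6.82 and 7.02 at 24 h. Every reperfusion group overlapped its sham group, and the 8 h array of replicate 3 was the highest in both regions. The log2 changes were 0.13, 0.16 and 0.03 at 2, 8 and 24 h in striatum and 0.28, 0.09 and -0.11 in cortex, each with an SE of 0.23 and an adjusted p of 0.508 or more (limma). The 95% intervals reached from -0.58 to 0.75 over the 6 comparisons, and changes of that size cannot be told from none with these arrays. Within the slide codes, Slc30a1 at 2 h in cortex was above the sham array on 4 of 4, by 0.03 to 0.50.

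**Figure D3:**
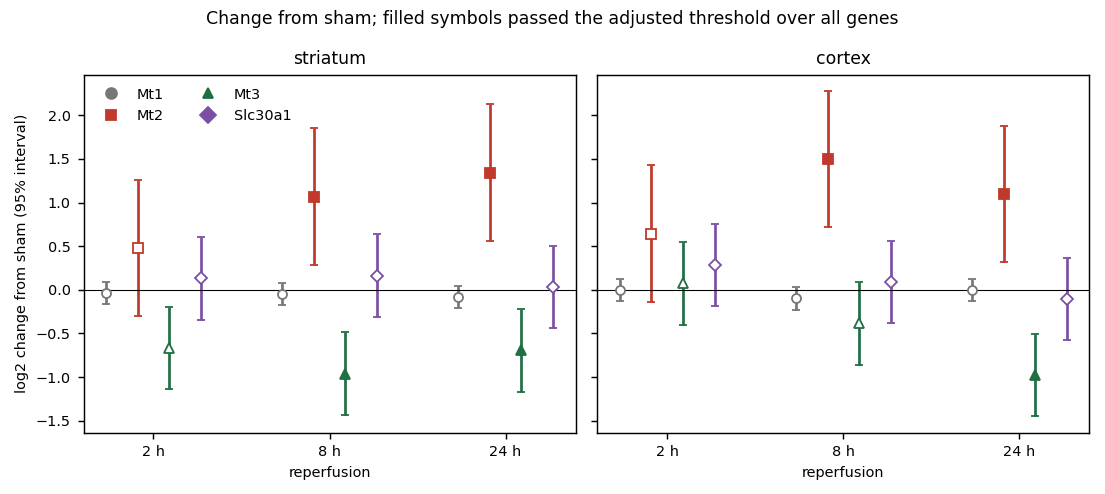
Log2 change from sham of each member at 2, 8 and 24 h in striatum and cortex, with 95% intervals; filled symbols passed the threshold after adjustment over all genes. Mt2 lies above 0 and Mt3 below it at 8 h and 24 h in both regions, while the intervals of Mt1 and Slc30a1 include 0 throughout.

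In how many members the arrays did not overlap sham was also counted. In striatum this held for Mt3 at 2 h and 8 h and for Mt2 and Mt3 at 24 h, against 18.9%, 24.0% and 28.0% of all genes. In cortex it held for Mt2 at 2 h and 8 h and for Mt3 at 24 h, against 19.0%, 21.5% and 29.5% of all genes. The non-overlap of Mt2 at 2 h in cortex and of Mt3 at 2 h in striatum thus came without a passed test.

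The array codes of the sample descriptions were read as slides, each with a sham, 2 h, 8 h and 24 h array of 1 region, which the labels do not state; place on the slide and group cannot be told apart. Against the sham array of the same code, Mt2 was higher on 4 of 4 slides at every time in both regions except at 24 h in cortex, where it was higher on 3 of 4 (-0.24 to 2.43). The Mt2 differences in striatum were 0.18 to 0.70 at 2 h, 0.15 to 1.72 at 8 h and 0.79 to 1.97 at 24 h. Mt3 was lower on 4 of 4 slides at all times in striatum, by -0.78 to -0.54 at 2 h, -1.63 to -0.53 at 8 h and -1.04 to -0.26 at 24 h. In cortex Mt3 was lower on 1 of 4 slides at 2 h, 3 of 4 at 8 h and 4 of 4 at 24 h (-1.56 to -0.66).

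**Figure D4:**
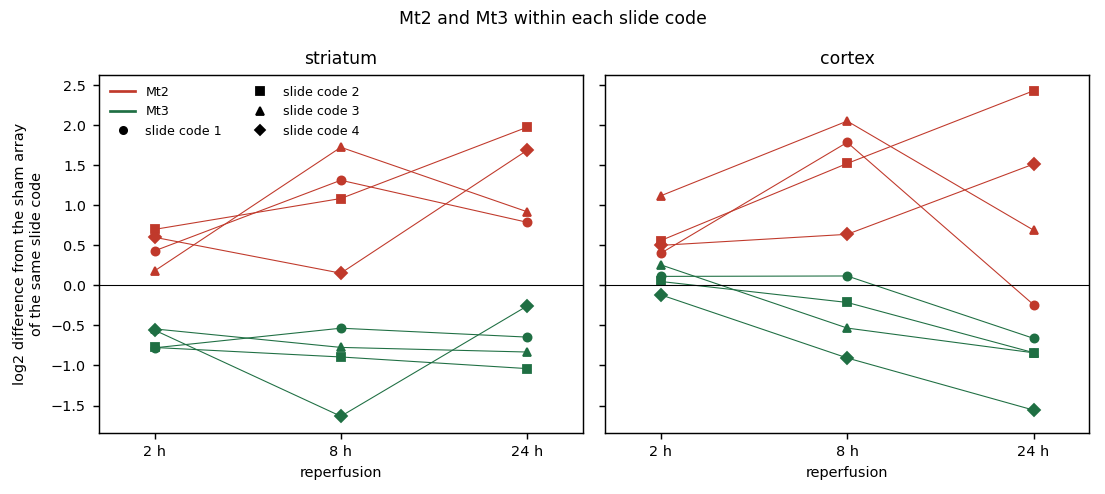
Log2 difference of Mt2 (red) and Mt3 (green) from the sham array with the same slide code, at 2, 8 and 24 h; each line joins the arrays of 1 code, which are different samples. All Mt2 points are above 0 except 1 cortical point at 24 h (-0.24), and all striatal Mt3 points are below 0.

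Whether members responded differently was tested within arrays, on the difference between 2 members' log2 values, with exact two-sided permutation tests over arrays (4 against 4) and adjustment over 24 tests. Of the 24, 14 passed at an adjusted p of 0.0490, each at 0.0286, the smallest p that 4 against 4 allows. Pairs at this smallest p share 1 adjusted p and pass or fail together, so their passes are not separate evidence. The change of Mt2 exceeded that of Mt3 by 1.14, 2.03 and 2.04 at 2, 8 and 24 h in striatum and by 1.88 and 2.07 at 8 h and 24 h in cortex, each past the threshold. At 2 h in cortex that difference was 0.57 (exact permutation p = 0.0571, adjusted 0.0914). The change of Mt1 was below that of Mt2 in 5 of the 6 comparisons past the threshold, all but 24 h in cortex. It was above that of Mt3 in 4 of 6. On this scale Mt1 was held at or near the top of the range, so these differences largely restate the changes of Mt2 and Mt3. They cannot show that Mt1 itself responded differently, though they count among the 14 that set the shared adjusted p. Slc30a1 and Mt1 differed past the threshold in 0 of 6, with exact permutation p of 0.0857 or more. None of the 24 passed when arrays were scaled to the 75th percentile, nor in sign-flip tests on slides, which cannot reach 0.05 with 4 slides. With that scaling, a few pairs leaving the smallest p can fail all of them, so it does not show that each difference was lost.

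Between successive times no member passed. At 8 h against 2 h the Mt2 change was 0.59 in striatum (adjusted p = 0.442, limma) and 0.85 in cortex (adjusted p = 0.210), where 1.53% and 2.93% of all genes passed. At 24 h against 8 h Mt2 changed by 0.27 in striatum (adjusted p = 0.714) and by -0.40 in cortex (adjusted p = 0.562), where 7.87% and 8.11% of all genes passed. Mt3 changed at 24 h against 8 h by 0.27 in striatum (adjusted p = 0.524) and by -0.59 in cortex (adjusted p = 0.109). The cortical Mt3 step passed with the slide code as a block (adjusted p = 0.0487) and without cortex 8 h replicate 4 (-0.77, adjusted p = 0.0346). At an unadjusted p under 0.05, 0 members passed either step in striatum, with 1635 and 2157 of 9475 genes, and 1 passed each step in cortex, with 1865 and 2346 genes. Leaving out 1 array moved the count of all genes called at 8 h against 2 h between 28 and 174 in striatum (145 with all arrays) and between 57 and 334 in cortex (278 with all arrays).

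The response in striatum was set against that in cortex as a difference of differences. For Mt3 at 2 h it was -0.74 ± 0.33 (unadjusted 95% interval -1.41 to -0.07, adjusted p = 0.753, limma), -0.58 at 8 h (adjusted p = 0.671) and 0.28 at 24 h (adjusted p = 0.893). For Mt2 it was -0.17, -0.43 and 0.24, with an SE of 0.54 and adjusted p of 0.867 or more. No member passed at any time, with 1, 0 and 0 at an unadjusted p under 0.05, and of all genes 0%, 0% and 0.0633% passed at 2, 8 and 24 h, with 607, 748 and 815 of 9475 at an unadjusted p under 0.05. That Mt3 passed at 8 h in striatum and not in cortex was therefore not shown to be a regional difference.

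In sham tissue, Mt3 averaged 12.23 ± 0.18 in striatum and 11.80 ± 0.18 in cortex (SD, n = 4 each), a difference of 0.42 ± 0.23 (SE, adjusted p = 0.163, limma). Slc30a1 averaged 6.62 ± 0.26 in striatum and 6.98 ± 0.17 in cortex, a difference of -0.36 ± 0.23 (adjusted p = 0.249). With same-numbered striatal and cortical arrays as 1 animal, both passed, with adjusted p of 0.0467 for Mt3 and 0.0446 for Slc30a1. Mt2 (0.21, adjusted p = 0.709) and Mt1 (-0.02, adjusted p = 0.831) did not. Of the 4 members 0 passed, while 34.0% of all genes did. At an unadjusted p under 0.05 there were 0 members and 4086 of the 9475 genes.

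Ordered by mean level, Mt2 was highest in striatum at 24 h (8.67 ± 0.53), then in cortex at 8 h (8.62 ± 0.46), striatum at 8 h (8.40 ± 0.68), cortex at 24 h (8.22 ± 1.26), striatum at 2 h (7.81 ± 0.25), cortex at 2 h (7.76 ± 0.32), sham striatum (7.33 ± 0.10) and sham cortex (7.12 ± 0.17). Mt3 ran from sham striatum (12.23 ± 0.18) over cortex at 2 h (11.88 ± 0.17), sham cortex (11.80 ± 0.18), striatum at 2 h (11.56 ± 0.07), striatum at 24 h (11.53 ± 0.30), cortex at 8 h (11.42 ± 0.52) and striatum at 8 h (11.27 ± 0.55) to cortex at 24 h (10.83 ± 0.45; SD, n = 4 each). In both orders, as in those of Mt1 and Slc30a1, the arrays of every pair of neighbouring groups overlapped.

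Over the 32 arrays, the mean of each region was subtracted, and Mt2, Mt3 and Slc30a1 did not follow one another closely. Pearson's r was -0.31 between Mt2 and Mt3, 0.17 between Mt2 and Slc30a1 and -0.06 between Mt3 and Slc30a1. It was -0.21 between Mt1 and Mt2 and 0.19 between Mt1 and Mt3. Mt1 was held at or near the top of the normalized range on every array. Its r therefore cannot show whether it followed the other members. By the same measure, the 5 genes most like Mt2 were Sphk1 (r = 0.92), which makes sphingosine-1-phosphate, Cstb (0.90), a cathepsin inhibitor, Rela (0.90), a subunit of NF-kB, Rhoj (0.90) and Cyp1b1 (0.90), a cytochrome P450. Those most like Mt3 were Slc9a3r1 (0.92), a scaffold of membrane transporters, Mrpl30 (0.89), a mitochondrial ribosomal protein, Eif4ebp2 (0.88), a repressor of translation initiation, Ndufs5-ps (0.88) and Wipi1 (0.88), an autophagy protein. The 5 most like Slc30a1 were Dusp4 (0.76), Mest (0.73), Smad1 (0.72), Abhd2 (0.68) and Bdnf (0.66). These are descriptions: the arrays share groups, slides and normalization, and the genes were picked from 9475.

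Of 25 further genes of zinc handling, 22 had a probe and 16 were measured, that is, detected on at least 4 arrays. In striatum 0 rose and 2 fell at 2 h, 2 rose and 3 fell at 8 h, and 3 rose and 6 fell at 24 h. In cortex 0 rose and 2 fell at 2 h, 1 rose and 5 fell at 8 h, and 1 rose and 8 fell at 24 h. Of all genes, 3.49%, 12.4% and 14.7% rose in striatum at 2, 8 and 24 h and 2.81%, 12.8% and 16.2% fell, while in cortex 2.21%, 9.58% and 15.7% rose and 2.45%, 10.6% and 17.6% fell. The median log2 change of the 16 was -0.06, -0.06 and -0.09 in striatum and -0.16, -0.26 and -0.32 in cortex, beside -0.03 to 0.00 for all genes. The metal sensor Mtf1 was detected on 3 of 32 arrays and was not tested.

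Slc39a13, which releases zinc from vesicles of the secretory pathway, fell in striatum by 0.49, 0.76 and 0.67 on the log2 scale at 2, 8 and 24 h. In cortex it fell by 0.83 at 8 h and by 0.89 at 24 h (adjusted p of 0.0207 or less, limma). Slc30a5, which loads zinc into the secretory pathway, fell in all 6 comparisons, by 0.36 to 0.48. Slc30a3, the transporter that fills synaptic vesicles of glutamatergic neurons with zinc, fell in cortex by 0.78 at 8 h and by 0.54 at 24 h, and was detected on 0 of 16 striatal arrays. Slc39a12, a zinc importer, fell at 24 h by 0.71 in striatum and by 0.49 in cortex, and Slc30a10, an exporter known to carry manganese, fell at 24 h by 0.74 in striatum and by 0.77 in cortex. Slc39a7, which lets zinc out of the endoplasmic reticulum, rose at 8 h and 24 h, by 0.37 and 0.28 in striatum and by 0.58 and 0.45 in cortex. Slc39a4 was at least 1.09-fold higher at 24 h in striatum, where 3 of 4 arrays detected it, against 0 of 4 in sham (adjusted p = 0.00182). Slc39a6 fell in striatum by 0.43 at 8 h and 0.40 at 24 h, and Slc39a11 fell in cortex by 0.46, 0.47 and 0.37 at 2, 8 and 24 h.

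**Figure D5:**
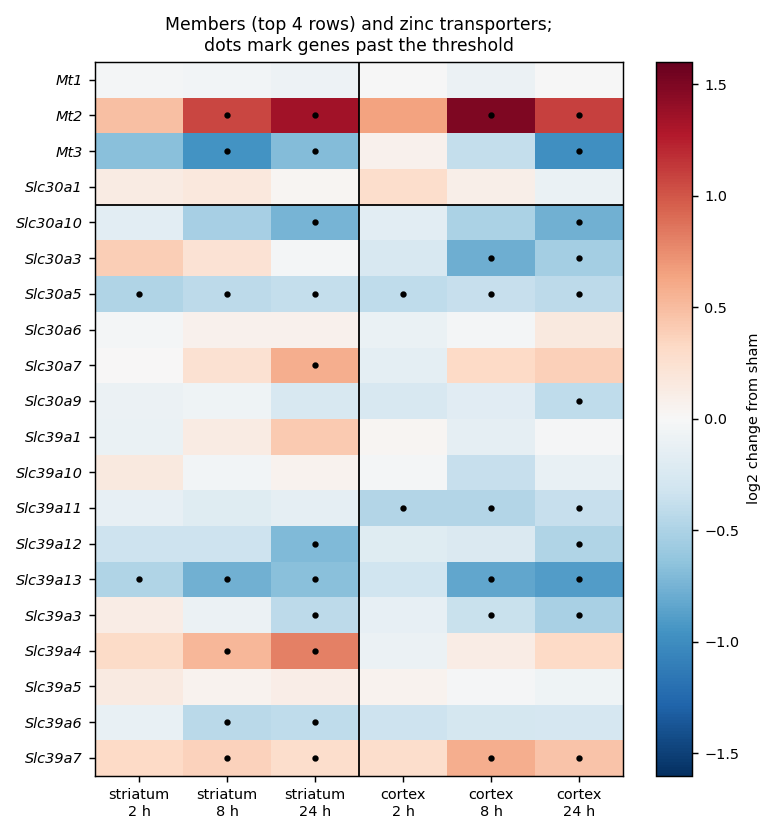
Log2 change from sham (colour) of the 4 members, above the line, and the 16 measured genes of zinc handling, in striatum and cortex at 2, 8 and 24 h; dots mark changes past the threshold. Mt2 is the reddest row, up to 1.50, and most dots below the line lie on blue cells, the most on Slc30a5 (6) and Slc39a13 (5).

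Of the copper handling genes (9 of 12 measured), 0, 1 and 3 rose in striatum at 2, 8 and 24 h and 0, 1 and 4 in cortex, and 0, 0 and 0 fell in striatum and 0, 1 and 1 in cortex. Among all genes, 3.49%, 12.4% and 14.7% rose in striatum and 2.21%, 9.58% and 15.7% in cortex. The shares that fell were 2.81%, 12.8% and 16.2% in striatum and 2.45%, 10.6% and 17.6% in cortex. Atox1, the copper chaperone of the secretory pathway, rose at 8 h and 24 h by 0.41 and 0.65 in striatum and by 0.41 and 0.61 in cortex. Cp, the copper oxidase ceruloplasmin, rose at 24 h by 0.55 in striatum and by 0.50 in cortex, and Slc31a2, a copper transporter, had a change of 0.34 in each that passed the test, though it was detected on 3 of 4 arrays in striatum and 2 of 4 in cortex, against 1 of 4 in either sham group. Commd1 fell in cortex by 0.29 at 8 h and by 0.27 at 24 h. The list's median change was 0.15 in striatum and 0.05 in cortex at 24 h, beside -0.03 and -0.01 for all genes.

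Genes of the 3 other pathways that are known to act on Mt1 and Mt2 were counted beside them. Whether these pathways were active, and their part in the Mt2 change, was not tested. Of the glucocorticoid receptor and its targets (13 of 14 measured), 5, 10 and 4 rose in striatum and 8, 8 and 5 in cortex, and 1, 0 and 2 fell in striatum and 2, 1 and 1 in cortex, at 2, 8 and 24 h. The median change was 0.49, 0.74 and 0.25 in striatum and 0.59, 0.88 and 0.40 in cortex, beside -0.03 to 0.00 for all genes. Among all genes, 3.49%, 12.4% and 14.7% rose in striatum and 2.21%, 9.58% and 15.7% in cortex. The shares that fell were 2.81%, 12.8% and 16.2% in striatum and 2.45%, 10.6% and 17.6% in cortex. Angptl4, a secreted inhibitor of lipoprotein lipase, rose by 1.49, 2.05 and 2.18 in striatum and by 1.41, 2.42 and 1.84 in cortex, the largest rise of the list in each of the 6 comparisons. Cdkn1a, the cell cycle inhibitor p21, rose in striatum by 1.79 at 8 h and 1.13 at 24 h and in cortex by 1.26, 2.00 and 1.21. Fkbp5, a chaperone induced by the receptor, rose at 8 h by 1.01 in striatum and by 0.88 in cortex, and its changes at 2 h and 24 h ran from -0.20 to 0.13, none of which passed. The receptor gene Nr3c1 fell at 2 h by 0.46 in striatum and by 0.49 in cortex, at 8 h in cortex by 0.38 and at 24 h in striatum by 0.53. It was detected on 4 of 4 sham arrays in each region but on 1 of 4 in striatum at 2 h and 24 h and in cortex at 2 h, so the falls there end at a level mostly not above background.

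Of the IL-6 family and STAT3 list (10 of 15 measured), 3, 4 and 6 genes rose in striatum at 2, 8 and 24 h and 0, 1 and 1 fell, while 2, 4 and 5 rose in cortex and 0 fell. The median change was 0.47, 0.59 and 1.30 in striatum and 0.48, 0.97 and 0.88 in cortex, beside -0.03 to 0.00 for all genes. Among all genes, 3.49%, 12.4% and 14.7% rose in striatum and 2.21%, 9.58% and 15.7% in cortex. The shares that fell were 2.81%, 12.8% and 16.2% in striatum and 2.45%, 10.6% and 17.6% in cortex. Socs3, the feedback inhibitor of STAT3 signalling, was detected on 0 of 4 sham arrays in striatum and was at least 10.2-fold higher at 2 h, 6.23-fold at 8 h and 18.1-fold at 24 h (adjusted p of 0.000234 or less, limma). In cortex its log2 change was 2.71, 2.80 and 3.05. Osmr, the oncostatin M receptor, rose by 1.40 and 2.26 at 8 h and 24 h in striatum and by 1.31 and 1.49 in cortex; 1 of 4 sham arrays detected it in striatum and 4 of 4 in cortex, so the striatal values start from a level mostly not above background. Stat3 itself rose by 0.57 and 1.55 at 8 h and 24 h in striatum and by 0.73, 1.02 and 1.42 at 2, 8 and 24 h in cortex. Il11, a cytokine of the family, was at least 6.33-fold higher in striatum and at least 3.49-fold higher in cortex at 24 h. Il6 was detected on 2 of 32 arrays, both from striatum at 24 h, and was not tested.

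Of the NRF2 targets (7 of 9 measured), 0, 1 and 2 rose in striatum and 0, 2 and 2 in cortex, and 0 fell. The median change was -0.01, 0.09 and 0.49 in striatum and -0.11, 0.31 and 0.42 in cortex, beside -0.03 to 0.00 for all genes. Among all genes, 3.49%, 12.4% and 14.7% rose in striatum and 2.21%, 9.58% and 15.7% in cortex. The shares that fell were 2.81%, 12.8% and 16.2% in striatum and 2.45%, 10.6% and 17.6% in cortex. Hmox1, haem oxygenase 1, rose by 2.68 at 24 h in striatum, where 1 of 4 sham arrays detected it, and was at least 2.65-fold and 4.13-fold higher at 8 h and 24 h in cortex, where 3 of 4 arrays detected it at each time, against 0 of 4 in sham. Nqo1, a quinone reductase, rose in striatum by 0.42 at 8 h and 0.55 at 24 h and was at least 1.31-fold higher in cortex at 24 h.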

How the data were processed

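Illumina MouseRef-8 V2 arrays measured the RNA of 32 samples. Per the file headers, the authors exported the probe profiles from BeadStudio 3.3.7 without normalization; the deposited values are mean bead signals, a linear intensity, and each comes with a fraction that counts detection upwards (1 minus p). The authors' deposited processed table divides each linear signal by the mean sham signal of its region, a ratio, as its values show, after a normalization between arrays that is not given in the sources used here; it served as an alternative only. Replicate numbers are those of the profiles; a second deposited table carries them mirrored within each group.

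The neqc function of limma 3.58.1 (R 4.3.3) corrected background, quantile-normalized the 32 arrays together and took log2 with offset 16. Probes detected at p under 0.01 on at least 4 arrays were kept (12758), and of several probes for a gene the brightest on average stood for it (9475 genes). An 8-group model (lmFit, eBayes) gave differences, p was two-sided and adjusted after Benjamini and Hochberg across the 9475 genes, threshold 0.05. The script was tested on simulated data. The number of arrays limits the precision. Members and lists were chosen with earlier results of these data known. Named were the members, Gpx1, the 5 genes most like each member (for Mt1 not reported here), up to 3 passing genes of each list per comparison with sham, and Mtf1, Slc30a3, Nr3c1, Stat3, Il6, Osmr and Fkbp5. A gene detected on 0 arrays of 1 group has a lower bound: each dim array was raised to its lowest detected log2 signal (5.57 to 5.97). Symbols and promoters are from RefSeq (GRCm38.p6). Alternatives were a 75th-percentile scaling, the slide or animal as block, uncorrected background, the authors' values, other detection filters, regions alone, another spread model, array weights and leaving out each array.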

Additional observations from a re-analysis of the deposited data

Results flagged for a closer look

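Of the 32 sets of 4 arrays tested (4 members in 8 groups), 2 held an array far from the others, and chance alone marks about 1 set in 20. The first was Mt1 in sham cortex, where replicate 2 had a log2 level of 14.15 and the other replicates 14.24 each. Those were the top-ranked probe of their arrays and so held 1 common value, and replicate 2 ranked 3. The second was Mt2 at 2 h in striatum, where replicate 3 had 7.44 and the other replicates 7.91 to 7.98. Its level lay among the sham arrays. Without it the 2 h change of Mt2 in striatum was 0.60 (adjusted p = 0.440, limma), against 0.48 (adjusted p = 0.481) with it.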

How the results depend on the processing

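No member's direction turned in a comparison it passed. Counts of members past the threshold that moved were as follows. With the slide code as a replicate block, 1 member passed in striatum at 2 h and 1 at 24 h against 8 h in cortex (Mt3 in both); with same-numbered arrays as 1 animal, 2 passed between the sham regions. With the authors' values 1 passed in striatum at 2 h and 1 at 8 h; with no detection filter 1 in cortex at 24 h and 1 in striatum at 8 h; with regions alone 1 in cortex at 24 h; with a trended, robust spread 1 in striatum at 8 h. With array weights 1 passed in striatum at 2 h, 1 at 24 h against 8 h in cortex and 1 between the sham regions. The causes were not tested. Leaving out 1 array gave 1 to 2 members in cortex at 24 h, 1 to 2 in striatum at 8 h and at 24 h, 0 to 1 at 24 h against 8 h in cortex, and 0 to 15 differing pairs; 1 to 1 passed in cortex at 8 h and 0 to 0 in the other comparisons. The pairs that differed fell to 0 with the 75th percentile and to 0 in the sign-flip replicate block. Pairs at the smallest possible p pass or fail together, so these counts move by many pairs at once. Of 18 alternatives, Mt2 kept its call in 18 in cortex at 8 h and in striatum at 24 h, in 11 in cortex at 24 h and in 8 in striatum at 8 h; Mt3 kept it in 18 in cortex at 24 h and in striatum at 8 h and in 14 in striatum at 24 h. Whether same-numbered arrays are paired is not settled: their deviations correlated at over 0.1 in 9 of 24 pairs within striatum (-0.273 to 0.325, median 0.06), 18 of 24 within cortex (-0.269 to 0.355, median 0.15) and 12 of 16 across regions (-0.049 to 0.561, median 0.19). All 4 pairs were over 0.1 between cortical sham and 2 h, cortical sham and 8 h, and across regions at 24 h, and in these comparisons the block changed no member's call. All genes called numbered 441 in cortex at 2 h, against 1565 with the authors' values, 1660 with array weights and 213 with regions alone, and 597 in striatum at 2 h, against 997 and 2478 with the first pair of these; leaving out 1 array gave 173 to 399 and 191 to 957. At 24 h against 8 h it gave 325 to 824 in striatum (746 with all arrays) and 314 to 1146 in cortex (768), and in cortex at 8 h 1148 to 1999 (1917). The slide block gave 250 genes at 8 h against 2 h in striatum, against 145. The authors' values put the median of all genes at -0.11 in cortex at 2 h and -0.14 in striatum at 24 h, with 743 genes higher and 2966 lower at the striatal time, against 1396 and 1535. Depth limits Slc30a1, which is near the detection floor, and Mt1, which is at the top of the range.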
